A study of Homo sapiens with 6 samples.

Results

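Ribosomal protein (RP) genes encode the protein components of the large and small ribosomal subunits, and their H3K27ac peaks were examined here in SU-CCS-1, a cell line derived from a human clear cell sarcoma. Members were the protein-coding genes of GENCODE version 44 whose symbols are RPL or RPS with a digit, or RPLP0, RPLP1, RPLP2 or RPSA. The RPS6K kinases, readthrough genes and genes on chromosome Y were left out. The rule gave 86 of the 20033 protein-coding genes examined and used no measured value. By role, 46 genes encode proteins of the large subunit and 31 encode proteins of the small subunit. A further 8 are paralogs (RPL3L, RPL7L1, RPL10L, RPL22L1, RPL26L1, RPL36AL, RPL39L and RPS27L), and 1 gene, RPS19BP1, matched the symbol rule but encodes a nucleolar protein that binds RPS19.

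The study performed chromatin immunoprecipitation sequencing (ChIP-seq) for H3K27ac, an acetylated lysine of histone H3 found at active promoters and enhancers. All samples were SU-CCS-1 cells with the EWSR1::ATF1 fusion, comprising 3 H3K27ac samples and 3 input samples, and all came from 1 cell line. The files hold 1 list of 30784 peaks for the whole series, with the position of each peak and no height, read count or value per sample. The reads behind each peak are therefore not known from the list, spread between replicates could not be measured, and no comparison below has a replicate check. The labelled cell type was compared with its markers: SOX10, MITF, PMEL, MLANA and S100B, markers of melanocytic or neural crest cells, each had a promoter peak (5 of 5), while MYOD1, MYOG, PTPRC, EPCAM and PECAM1, markers of muscle, blood, epithelial and endothelial cells, had none (0 of 5). The start of the canonical transcript lay inside a peak at SOX10 and MITF, but not at PMEL, MLANA or S100B. The MLANA peak began 4512 bases downstream of that start and was counted through another annotated start.

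Ribosomes are built in the nucleolus from ribosomal RNA and RPs that are made in near-equal amounts. Growing cells spend much of their transcription on them. Most RP genes are short, are expressed in nearly every cell type and often carry small nucleolar RNAs (snoRNAs), guides for the chemical modification of ribosomal RNA, in their introns. Their mRNAs typically begin with a C followed by a run of pyrimidines (C or T in the DNA), the 5′ terminal oligopyrimidine (TOP) motif, through which the mTOR pathway controls their translation.

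The sequences around the start sites are shown for genes whose peaks are described in detail below. Each line gives 30 bases of hg38 around the start of the canonical transcript, from 15 bases before the start, on the strand of the gene. Capitals mark the run of at least 6 pyrimidines that touches the 11 bases centred on the start, and lines without capitals have no such run.
RPL7A (chr9:133348203-133348232, + strand): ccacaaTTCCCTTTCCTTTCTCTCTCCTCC
RPLP2 (chr11:809952-809981, + strand): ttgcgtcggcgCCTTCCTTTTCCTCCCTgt
RPL13A (chr19:49487593-49487622, + strand): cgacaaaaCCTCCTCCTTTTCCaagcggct
RPS16 (chr19:39435935-39435964, - strand): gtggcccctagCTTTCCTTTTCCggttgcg
RPS24 (chr10:78033848-78033877, + strand): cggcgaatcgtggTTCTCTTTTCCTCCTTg
RPL11 (chr1:23691791-23691820, + strand): cggaagctccgCTTTCTCTTCCTgctctcc
RPL23A (chr17:28719970-28719999, + strand): cccgtgggaacgagcattggagaccctttt
RPS15 (chr19:1438381-1438410, + strand): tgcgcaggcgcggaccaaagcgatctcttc
RPS4X (chrX:72277234-72277263, - strand): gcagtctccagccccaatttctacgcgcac
RPL3L (chr16:1954675-1954704, - strand): agtcctggccctgccactcgacctctggcg
RPL10L (chr14:46651767-46651796, - strand): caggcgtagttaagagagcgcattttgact

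A pyrimidine run of this kind was found at 70 of the 86 starts (81.4%), against 22.4% of all protein-coding genes. Runs of at least 10 pyrimidines were found at 61 starts (70.9%, against 6.37%). The run had a median of 12 bases in RP genes that had one and reached 25 bases at RPL7A, a large-subunit protein, while the median over all genes with a run was 8. The first transcribed base was C in 64 RP genes (74.4%, against 10.7%). Among the 77 RP genes that are neither paralogs nor RPS19BP1, 88.3% had the run. Of the 16 genes without it, 6 were paralogs (RPL3L, RPL7L1, RPL10L, RPL26L1, RPL39L and RPS27L) and 1 was RPS19BP1. The others included RPL3, RPL15, RPL23A, RPL27, RPL32, RPS4X and RPS15. These runs were read at annotated starts only, since the data hold no measurement of where transcription begins.

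Promoter peaks, defined as peaks with any base within 3 kb of any annotated start of the gene, were found at 85 of 86 RP genes (98.8%, 95% Wilson interval 93.7 to 99.8%). The share over all protein-coding genes was 63.4%. All 46 large-subunit genes and all 31 small-subunit genes had one, as did 7 of 8 paralogs and RPS19BP1. The 85 genes had 85 distinct main peaks, the main peak being the peak that covers the canonical start or otherwise lies nearest to it. In all, 133 peaks lay in the promoter windows, which is 0.432% of the peaks in the list, and their widths summed to 220.9 kb.

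The exception was RPL10L, an intronless paralog of RPL10 known for its expression in testis. Its nearest peaks lay 1022210 bases upstream and 1262121 bases downstream of its start. RPL3L, a paralog of RPL3 known from heart and skeletal muscle, was counted through another of its annotated starts, which lay 1375 bases from a peak of 1720 bases (chr16:1958981-1960700). That peak lay 4292 bases upstream of the canonical start of RPL3L, contained the start of NDUFB10, a subunit of respiratory complex I, and was also within 3 kb of an RPS2 start. The other 6 paralogs had their canonical starts inside peaks, with widths from 1140 bases at RPL39L to 2460 bases at RPS27L.

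The canonical start itself lay inside a peak in 75 of 86 RP genes (87.2%), against 53.5% of all protein-coding genes. When only genes with a promoter peak were considered, the shares were 88.2% and 84.4%. The start was covered in 40 of 46 large-subunit genes and 28 of 31 small-subunit genes. Coverage by peaks over the 86 genes reached its highest point, 91.9%, at 310 bases downstream of the start, while over all protein-coding genes it reached 54.8% at 130 bases. At 1 kb upstream the RP genes stood at 33.7% and all genes at 16.2%, and at 1 kb downstream they stood at 36.0% and 21.8%. These shares also count genes with no promoter peak, so they do not compare how far the peaks reach. The extents of peaks over covered starts are given below.

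**Figure D1:**
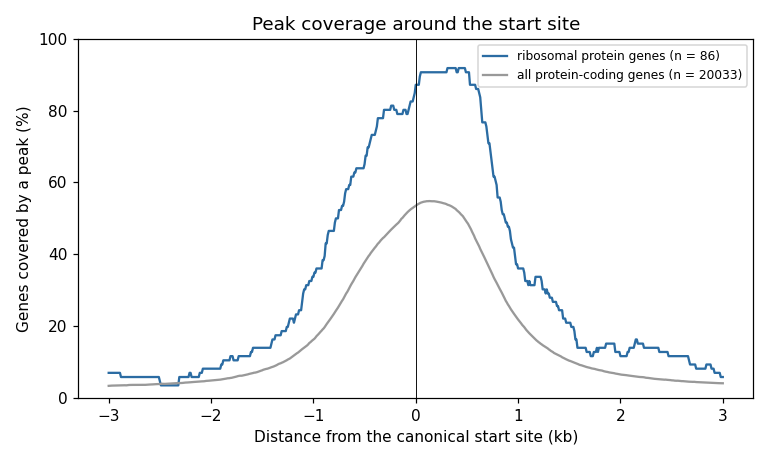
Share of genes covered by an H3K27ac peak (y axis, %) at each distance from the canonical start site (x axis, kb, positive into the gene) for the 86 RP genes and all 20033 protein-coding genes. The RP curve stands at 87.2% at the start and 91.9% at its highest point, and the curve of all genes stays at or under 54.8%.

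In 11 RP genes the canonical start lay outside every peak. RPL11, which binds MDM2 together with the other proteins of the 5S particle, lay 35 bases before a narrow peak of 450 bases inside the gene. RPS24, a small-subunit protein, lay 38 bases before a peak of 1520 bases, and RPL36A, encoded on X, lay 50 bases before one of 480 bases. RPS15A had a peak of 600 bases that ended 97 bases upstream of its start, RPL26 had one of 1000 bases that ended 178 bases upstream, and RPL30 had one of 420 bases that ended 496 bases upstream. The peak of RPL38 began 413 bases downstream of the start. These peaks therefore lay on one side of the canonical start, upstream in some genes and downstream in others. The nearest annotated start lay 9 bases from a peak at RPL30, 16 at RPL11, 48 at RPS15A, 158 at RPL26 and 387 at RPL38. RPS24 and RPL36A had another annotated start inside a peak. With any annotated start counted, 79 of the 86 RP genes had a start inside a peak, against 58.2% of all protein-coding genes.

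RPS2 and RPL8 had canonical starts that fell between peaks on both sides, and each had another annotated start inside a peak. A peak of 890 bases ended 185 bases upstream of the RPS2 start, and a peak of 1840 bases began 386 bases downstream of it. At RPL8, a peak of 5400 bases ended 901 bases upstream of the start and one of 1020 bases began 310 bases downstream. RPL8 was the gene with the most promoter peaks, 4 in all. A dip in the signal and a break set by the caller cannot be told apart in the list.

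The main peaks of the 85 genes had a median width of 1680 bases, with quartiles of 1210 and 2350 bases. The 95% interval of the median, from the ordered widths, was 1480 to 1870 bases and covers the choice of genes only. Main peaks over all protein-coding genes had a median of 1500 bases and quartiles of 1020 and 2090 bases. The all-gene median lies inside the interval of the RP genes, but this is no test of a difference, since genes are not replicates. Widths were above the all-gene median in 52 of 85 RP genes, above the upper quartile in 24 and below the lower quartile in 13. The medians were 1685 bases for the large subunit, 1590 bases for the small subunit and 1860 bases for the 7 paralogs with a peak.

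Very narrow and very wide main peaks were also counted beside all genes. Of the 85 main peaks, 12 (14.1%) were under 1 kb, against 23.8% of all genes with a promoter peak. Peaks over 3 kb were found at 6 RP genes (7.06%), against 9.61%. None exceeded 5 kb, against 2.50% of all genes. Both counts of wide peaks are small and do not set RP genes apart.

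**Figure D2:**
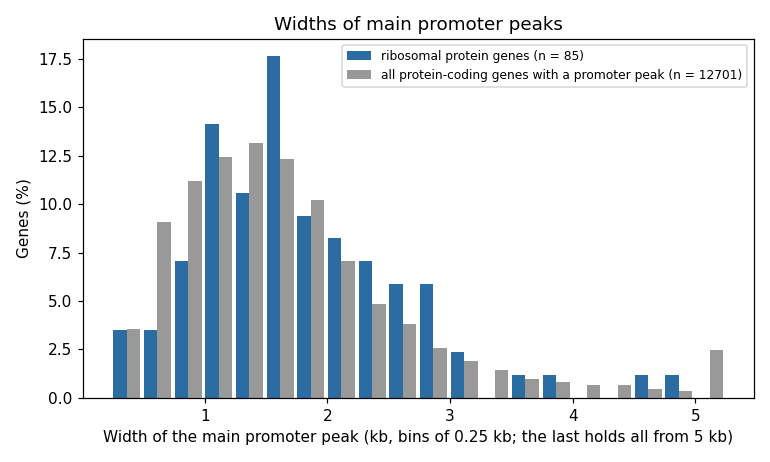
Widths of main promoter peaks (x axis, kb, in bins of 0.25 kb) as a share of genes (y axis, %) for the 85 RP genes and the 12701 protein-coding genes with a promoter peak. The RP widths run from 420 to 4760 bases, and the last bin, from 5 kb, holds no RP gene.

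The widest main peak, 4760 bases, was at RPL23A, a large-subunit protein at the exit tunnel (chr17:28716661-28721420). It reached 3324 bases upstream and 1435 bases downstream of the start and also contained the start of RAB34, a small GTPase. RPLP2, an acidic protein of the ribosomal stalk, had a peak of 4620 bases (chr11:808231-812850) that ran 2883 bases downstream of the start and covered 99.1% of the transcribed stretch. RPL13A had a peak of 3930 bases (chr19:49486821-49490750), RPL35A one of 3620 bases, and RPL10, which lies near the peptidyl transferase centre, one of 3210 bases. The next widths were 3150 bases at RPL41, the smallest RP, 2980 bases at RPL18, 2910 bases at RPS16, and 2840 bases at both RPS13 and RPL7. At RPL41 only 10 bases separated the peak from a neighbour of 890 bases. Among these 10 genes, 8 encode large-subunit proteins and 2 encode small-subunit proteins.

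The narrowest main peaks were 420 bases at RPL30, 450 bases at RPL11 and 480 bases at RPL36A, close to the narrowest peak of the whole list at 400 bases. RPS15A (600 bases), RPS4X (640 bases), RPS3 (660 bases), RPS19BP1 (860 bases), RPS2 (890 bases), RPL17 (900 bases) and RPL38 (920 bases) followed. Of these 10 genes, 6 had a canonical start outside any peak, and 2 others, RPS4X and RPS3, had a peak that began within 100 bases of it.

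**Figure D3:**
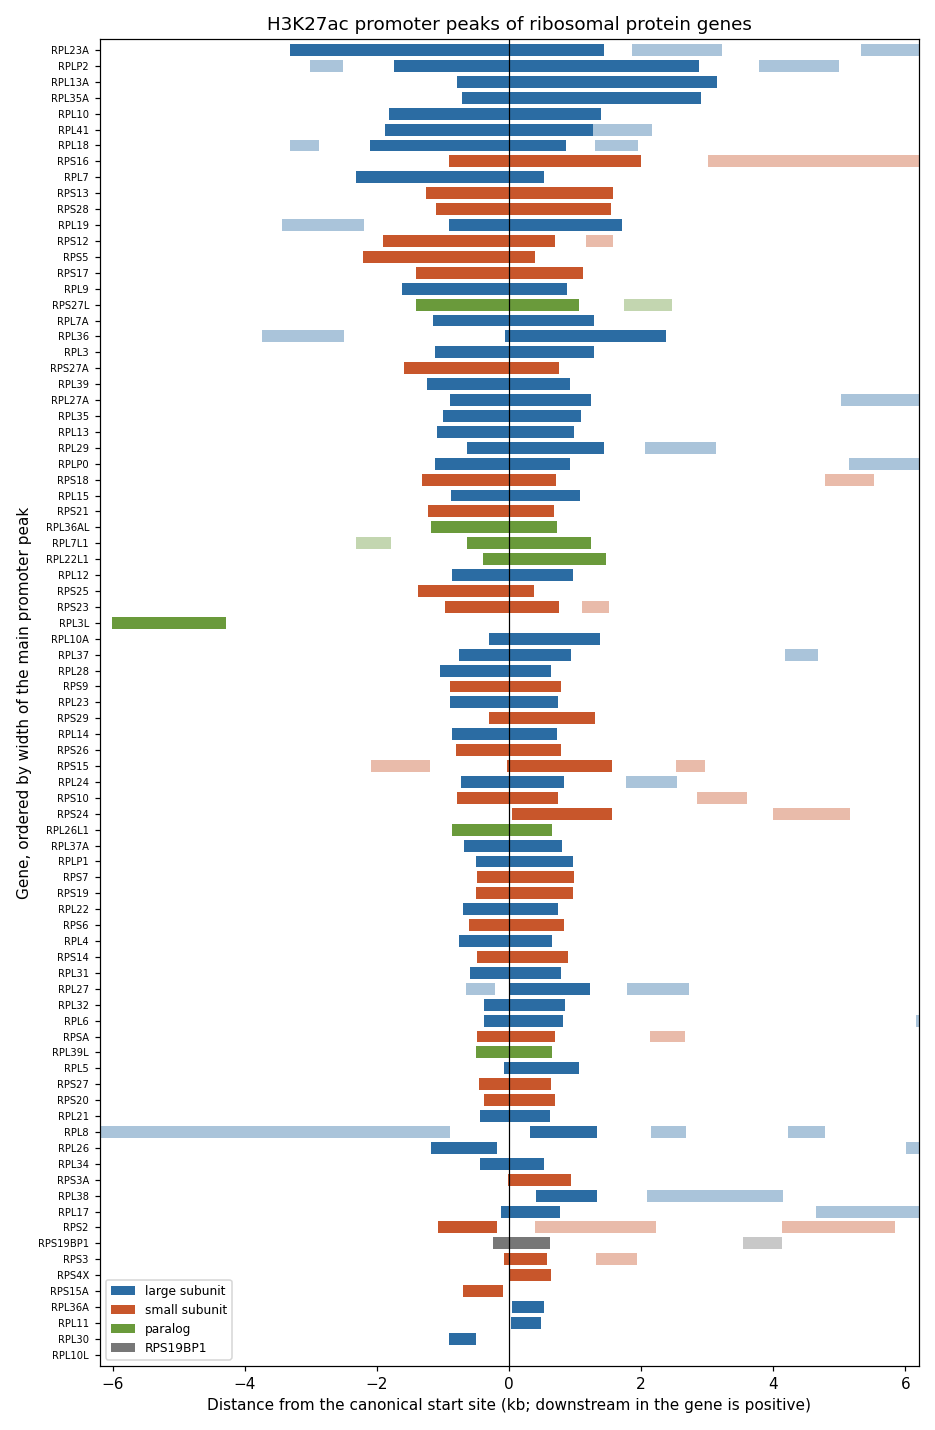
Promoter peaks of 83 of the RP genes (y axis, ordered by main peak width) by distance from the canonical start (x axis, kb, positive into the gene, drawn to 6.2 kb on each side, with peaks beyond that cut off). Solid bars are main peaks and faded bars are other promoter peaks, coloured by group. RPL23A is at the top with 4760 bases, RPL30 is the narrowest with 420 bases, and RPL10L has no bar.

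The position of the start within the peak varied more on the upstream side. In the 75 genes with a covered start, the peak extended a median of 797 bases upstream, ranging from 2 to 3324 bases, and a median of 898 bases downstream, ranging from 382 to 3142 bases. All protein-coding genes with a covered start had medians of 668 and 847 bases. The downstream arm was the longer one in 47 of the 75 genes (62.7%), against 65.3% of all genes. RPL13A had the longest downstream arm, and RPL23A the longest upstream arm.

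A small set of peaks began almost at the start site. The upstream edge lay within 100 bases of a covered start in 7 genes (9.33%, against 5.22% of all genes with a covered start), namely RPS4X (2 bases), RPL27 (8 bases), RPS3A (17 bases), RPS15 (25 bases), RPL36 (54 bases), RPL5 (69 bases) and RPS3 (77 bases). RPL5 joins RPL11 and 5S ribosomal RNA in the particle that can bind MDM2. RPL11, RPS24 and RPL36A, described above, added 3 peaks that began just downstream. Together, 10 of the 85 main peaks (11.8%) began within 100 bases of the start on either side, against 6.89% of all main peaks. Edges lie on a grid of 10 bases, so distances of a few bases are at the limit of the list.

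**Figure D4:**
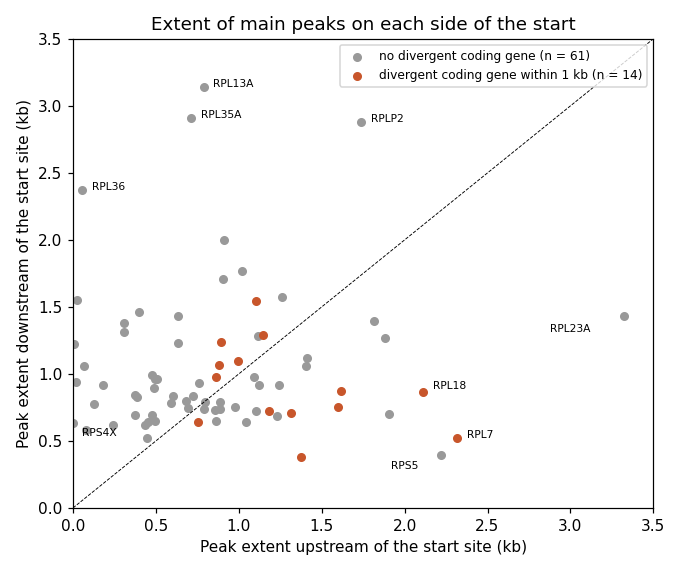
Extent of the main peak upstream (x axis, kb) and downstream (y axis, kb) of the canonical start for the 75 RP genes with a covered start, with the 14 genes that have a divergent coding gene within 1 kb in orange. The dashed line marks equal extents. RPL23A lies farthest to the right at 3324 bases upstream and RPL13A highest at 3142 bases downstream.

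The downstream edges fell early in the genes. The edge lay in intron 2 in 27 genes, in intron 1 in 23, in intron 3 in 11 and in intron 4 in 3. Of the remaining genes, 10 had the edge in an exon, and RPL36 had a peak that ran beyond the end of the gene. The main peak held the start codon in 65 of 85 genes. Edge positions and start codons were not counted over all protein-coding genes, so these counts have no share to be set beside them. RP genes were short, with canonical transcripts spanning a median of 4531.5 bases of genome against 22913 bases over all protein-coding genes. A median of 20.9% of the transcribed stretch lay in peaks, against 1.26% over all genes. Over all genes with a promoter peak the median was 3.72%. At least 50% was covered in 14 RP genes (16.3%, against 2.96%), among them RPL36 (100%), RPL41 (99.3%), RPLP2 (99.1%), RPS28 (83.7%), RPS15 (74.0%), RPL29 (73.5%) and RPS16 (71.1%).

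More than 1 promoter peak was found at 36 RP genes (41.9%), against 19.2% of all protein-coding genes. That share also counts genes with no peak, and 3846 of the 12701 coding genes with a promoter peak had more than 1. The share was 47.6% in 21 other genes with TOP mRNAs, 30.8% in 39 ribosome biogenesis factors and 28.2% in 78 mitochondrial ribosomal protein genes. Of the 36 RP genes, 24 had 2 peaks, 11 had 3 and RPL8 had 4. The window was set on all annotated starts, of which RP genes had a median of 8 against 5 over all genes. With the window on the canonical start alone, 21 RP genes (24.4%) had at least 2 peaks, against 9.20%, and 84 (97.7%) had at least 1, against 59.9%. The genes with 3 peaks were RPL6, RPL10, RPL18, RPL23A, RPL27, RPL27A, RPL36, RPLP2, RPS2, RPS15 and RPS24.

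Several RP genes shared their main peak with another gene. In 17 of 85 genes it held the start of another protein-coding gene, and the share over all genes with a promoter peak was 21.3%. A divergent coding gene has its start within 1 kb on the other strand and faces away. Such a partner was found for 14 RP genes (16.3%, against 9.46% of all protein-coding genes). Among the 12701 coding genes with a promoter peak, 1802 had one. The share was 33.3% in mitochondrial ribosomal protein genes and 28.2% in ribosome biogenesis factors. For each of the 14 RP genes the partner's start lay in the same peak. The closest pairs were RPL7A with MED22, a Mediator subunit, at 87 bases, RPL12 with LRSAM1, an E3 ubiquitin ligase, at 104 bases, RPS28 with a neighbour at 117 bases, RPL27A with TRIM66 at 127 bases, and RPL9 with LIAS, the lipoic acid synthase, at 134 bases. RPL7 and RDH10, a retinol dehydrogenase, were the farthest apart at 969 bases.

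Main peaks of the genes with a divergent partner had the larger median upstream of the start. Their median width was 2110 bases against 1560 bases for the other RP genes, and the upstream arm measured 1165.5 bases against 695 bases. The downstream arm measured 869 bases against 919 bases. The same held over all protein-coding genes, with widths of 1685 and 1470 bases and upstream arms of 960 and 617 bases. The widths of the 14 RP genes with a partner, from 1400 to 2980 bases, lay within the range of the others.

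Intronic snoRNAs were hosted by 28 RP genes (32.6%), against 1.26% of all protein-coding genes. All 28 hosts had a promoter peak, with a median width of 1760 bases against 1620 bases for the genes without snoRNAs. They held 60 snoRNAs, of which 13 (21.7%) had their midpoint in a peak. RPL4, a large-subunit protein, held 5, and none of these lay in its peak of 1400 bases, which reached 644 bases into the gene.

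RP genes were spread over 21 chromosomes. Chromosome 19 held 12 (14.0% of RP genes, against 7.37% of coding genes) and chromosome 3 held 9 (10.5%, against 5.40%). All of these had a canonical start inside a peak, as did 75 of all 86 RP genes. On chromosome 16, 1 of 4 canonical starts was covered, the others being those of RPL3L, RPS2 and RPS15A. These chromosomes were picked for their counts, which are small. The nearest other peak lay a median of 6190 bases from the main peak, against 19000 bases for all genes with a promoter peak. Within 100 kb there was a median of 6 other peaks, against 4, and of 4 other coding starts, against 3. RPLP2 and RPS15 had the most, 20 other peaks each. No other peak lay within 100 kb of RPL7, RPS20, RPL39L and RPS6, the last a target of the S6 kinases, whose nearest peak was 107780 bases away. Such isolated peaks made up 4.71% of the RP main peaks and 12.1% of all main peaks.

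When peaks closer than the stitching distance used in the study were joined, 83 regions held the main peaks of RP genes. Of these, 33 (39.8%) consisted of a single peak, against 66.8% of the 9692 regions that held a main peak of any coding gene. Their summed peak width had a median of 2.94 kb against 1.73 kb. Regions were ordered by their summed width, as peak heights were lacking, and this order is not a super-enhancer call. By that measure 17 regions of RP genes (20.5%) were among the top 1000, against 6.62%. The 9692 reference regions were each counted once, although 12701 coding genes had a promoter peak. Regions with several coding genes are reached more often through a list of genes. The single-peak shares, summed widths and ranks were not matched for this. The highest were those of RPS15 (rank 49 of 17049, chr19:1383461-1454860, 13 peaks with 30.42 kb in all), RPLP2 (rank 60, 12 peaks with 27.66 kb) and RPS16 (rank 77, 10 peaks with 24.87 kb). RPL10 followed at rank 107, RPL23A at rank 167 and RPL27 at rank 174. These regions also held other genes, and the main peak of RPS15 contributed 1580 bases to its region.

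Some RP genes lay near each other. RPL3L and RPS2 on chromosome 16 fell in 1 region, had starts 10137 bases apart and shared the peak at NDUFB10. RPL36AL with RPS29, and RPL41 with RPS26, lay 34246 and 74715 bases apart in separate regions.

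Promoter sequence was searched for 7 motifs in the 300 bases from 250 before to 50 after each canonical start of hg38, on both strands. The ATF/CREB motif TGACGTCA, the site recognised by the DNA-binding domain of ATF1 that the EWSR1::ATF1 fusion retains, was found in 4 RP promoters (4.65%). The share was 2.69% over all protein-coding genes and 3.78% over those with the start inside a peak. These 4 were RPL18, RPL3, RPLP2 and RPS29, and in each the motif lay inside the main peak. They are printed with the motif in capitals and 30 bases on each side, on the strand of the gene. A match of these letters describes the sequence, and no binding was measured here.
RPL18 (chr19:48619198-48619265, - strand): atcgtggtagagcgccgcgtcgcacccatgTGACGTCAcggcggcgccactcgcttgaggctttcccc
RPLP2 (chr11:809844-809911, + strand): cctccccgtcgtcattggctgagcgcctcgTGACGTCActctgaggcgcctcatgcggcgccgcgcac
RPS29 (chr14:49586499-49586566, - strand): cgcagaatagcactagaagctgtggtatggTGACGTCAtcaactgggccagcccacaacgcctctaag
RPL3 (chr22:39319748-39319815, - strand): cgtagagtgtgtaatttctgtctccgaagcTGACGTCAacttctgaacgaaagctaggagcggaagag

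The motif began 57 bases upstream of the start at RPL18, 93 at RPLP2, 156 at RPS29 and 162 at RPL3. The ETS core CCGGAAG was the motif with the largest share apart from the GC box, in 30 promoters (34.9%, against 14.1% of all genes and 21.5% of those with the start inside a peak). On the other strand this core reads as pyrimidines followed by GG, so it can share bases with a pyrimidine run. It did so at RPL29, RPL34 and RPL37, and such overlaps were not counted over the groups. The YY1 core AAGATGGC was found in 11 (12.8%, against 4.04% and 6.21%), among them RPL13A, RPL21, RPL22L1, RPL23A, RPL24, RPL30, RPL35A, RPS3, RPS15A and RPS28. The GC box GGGCGG was found in 52 (60.5%, against 61.3% and 78.3%), and the TATA box TATAAA in 8 (9.30%, against 9.71% and 4.18%). The E-box CACGTG was found in 6 (6.98%, against 8.76% and 10.5%) and the AP1 motif TGAGTCA in 1, RPL24 (1.16%, against 3.57% and 2.10%). The 1 kb around the start had a median GC content of 58.2% in RP genes, 61.3% in all genes and 64.5% in those with the start inside a peak. GC content was not taken into account in these shares.

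**Figure D5:**
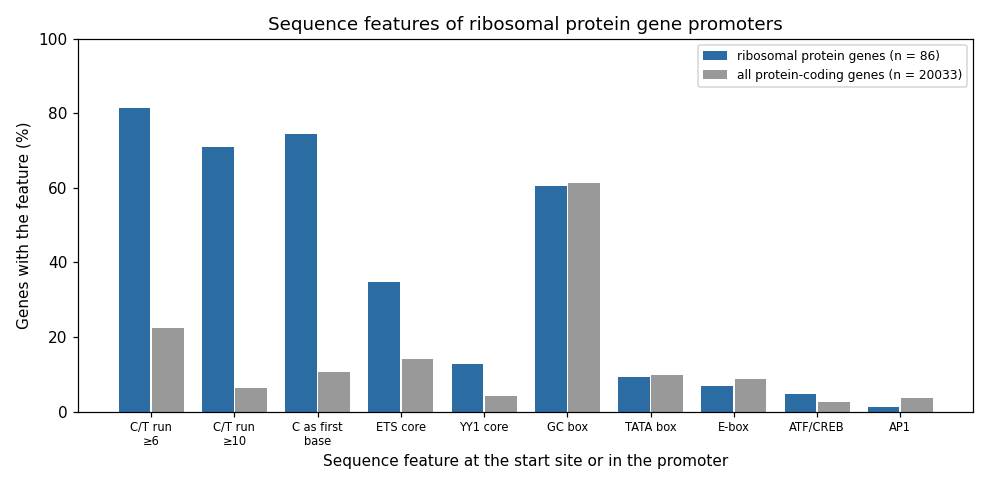
Share of genes (y axis, %) with each sequence feature (x axis) for the 86 RP genes and all 20033 protein-coding genes, where C/T runs are pyrimidine runs that touch the start. The 2 groups stand apart at C/T runs of at least 6 (81.4 and 22.4%) and are close at the GC box (60.5 and 61.3%).

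Main peak widths were also set beside the start sequence. The 70 RP genes with a pyrimidine run had a median of 1680 bases, and the 15 genes without one that had a peak had a median of 1580 bases. The start was covered in 61 of the 70 and in 14 of the 16.

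Other genes of the translation machinery and with TOP mRNAs were read in the same way. FAU, which encodes an RP fused to a ubiquitin-like protein, had a main peak of 1820 bases, and RACK1, a scaffold on the small subunit, had one of 5300 bases. A list of 21 other genes known for TOP mRNAs held mostly translation factors, and also VIM, an intermediate filament protein, HNRNPA1, an RNA-binding protein, and the histone chaperones NAP1L1 and NPM1. All 21 had a promoter peak, with a median width of 1940 bases. Their start was covered in 19, the exceptions being EEF1D and PABPC1. All 39 ribosome biogenesis factors examined had a promoter peak (median 1430 bases), and the start was covered in 36. Of 78 mitochondrial ribosomal protein genes, 77 (98.7%) had a promoter peak, with a median width of 1420 bases, MRPS7 being the exception. The start was covered in 72 of them. The high shares of genes with a promoter peak and with a covered start were therefore also seen in these other lists. The start was covered in 90.5% of the TOP list and in 92.3% of both the biogenesis and mitochondrial lists, against 87.2% of RP genes.

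RP genes have many processed copies in the genome, and reads that match several copies are hard to place. GENCODE lists 1600 pseudogenes named after 78 of the members, 1524 of them processed, with 133 for RPL21 alone. A peak lay over any base of 25 of them (1.56%), and 12 (0.750%) had their start inside a peak. By the 3 kb window used for promoter peaks, 117 (7.31%) had one, and 37 of these lay within 3 kb of a coding start. How reads shared by a gene and its copies were placed was not given in the sources used here, and its part in the peak calls was not tested.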

How the data were processed

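H3K27ac ChIP-seq was performed by the study in SU-CCS-1 cells (3 H3K27ac and 3 input samples, grouped by sample title). According to the study's methods and the submitters' processing notes, reads were aligned to hg38 with BWA (0.7.10-r789), duplicates were removed, broad peaks were called with MACS2 (2.2.6) against input, and blacklisted regions were discarded. The authors deposited 1 merged list with 4 columns (chromosome, start, end, name) and no score, so peak height, replicate error and the read depth behind each peak are not in the list. How replicates were merged into this list was not given in the sources used here. Broad calling joins nearby stretches, which makes width depend on depth and on the caller's settings, and absence from the list does not show absence of the mark.

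Starts were taken from GENCODE 44 (Python 3.11.15, scipy 1.17.1), all 86 canonical transcripts being MANE Select. Coordinates count from 1. Peaks within 12.5 kb were joined into regions, the distance used in the study. Genes named in the text were the 10 widest and 10 narrowest main peaks, genes with uncovered starts, divergent pairs, region members and motif matches. Members, lists and alternatives were chosen with earlier results of these data known. Shares have Wilson intervals, which cover counting only. No test was run, because 1 list has no replicates and genes are not replicates. The interval and overlap code was tested on simulated peaks. A few single genes are counted in the totals but not reported here.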

Additional observations from a re-analysis of the deposited data

How the results depend on the processing

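In all, 24 alternative settings were tried over 6 results, and 19 left the result within 1.5 times its value or, for widths and shares, within its interval. The other 5 moved it. With only the widest 25% of peaks kept, 43 RP genes had a promoter peak (26.9% of all protein-coding genes did), and with the widest 50% kept, 75 had one (49.0%). Genes with at least 2 promoter peaks fell from 36 to 18 with a 1 kb window (12.6% of all genes) and to 21 with the canonical start only (9.20%). The share with a pyrimidine run was 68.6% when a C at the start and at least 5 pyrimidines counted from it were required (4.59% of all genes). With the run of at least 6 it was 88.3% in the 77 genes that are neither paralogs nor RPS19BP1. In each of these settings the RP share stayed above that of all genes. The tally of settings says little for counts near the total of 86, which could hardly rise. Counts over the 77 genes have another total. The median main peak width ranged from 1655 to 1760 bases over the alternatives that kept all groups and was 1630 bases without paralogs and RPS19BP1. Joining over 5 or 25 kb gave 83 and 82 regions. No paired analysis was possible because the list has no column per replicate, and for the same reason no replicate could be left out. The lack of read counts per peak limits what a missing peak or a narrow one can show.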
